A study of Mus musculus with 31 samples.

Results

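This account describes NIPBL and Rad21 peaks around Btg1 and Btg2, the genes of 2 antiproliferative proteins, in mouse B cells. The members are all peaks of 26 chromatin immunoprecipitation sequencing (ChIP-seq) peak lists that overlap 96.04 to 96.13 Mb of chromosome 10 (the Btg1 window, 90 kb) or 135.93 to 136.01 Mb of chromosome 1 (the Btg2 window, 80 kb) in mm9. They number 2117 of 17061930 deposited peaks, 988 of them in the Btg1 window and 1129 in the Btg2 window. The Btg1 window was chosen because it lies near the strongest loss of Rad21 peak coverage after stimulation of splenic B cells in these same lists, so every splenic Rad21 comparison below is a description with no test. No mm9 annotation was used, so the start sites of both genes within the windows are not given.

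All samples are labelled AID-deficient and C57BL/6, the lymphoma line included; AID is the enzyme that initiates antibody class switching. For NIPBL there were 3 libraries of splenic B cells stimulated for 48 h by anti-CD40 plus IL-4 and 3 of unstimulated ones. The B lymphoma line CH12F3 gave 2 NIPBL libraries stimulated for 24 h, with TGF-β added to those stimuli, and 2 unstimulated ones. The Rad21 libraries came from stimulated (n = 3) and unstimulated (n = 3) splenic B cells, stimulated i3CBEs cells (n = 3), and stimulated (n = 4) and unstimulated (n = 3) CH12F3 cells, with the same stimuli. Sample titles name the line CH12F3NCdel and one derivative i3CBEs, and the labels expand neither name. For 10 Rad21 libraries of the line a label field names splenic B cells; source name and title were followed. The stimuli and their duration differ between spleen and line, and cannot be told apart from cell type.

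Btg1 and Btg2 belong to the BTG/TOB family, small proteins that bind the CCR4-NOT deadenylase and promote shortening of mRNA poly(A) tails. They restrain cell division and help to keep resting lymphocytes quiescent, and BTG1 is recurrently mutated in human B cell lymphoma. Rad21 is the kleisin subunit that closes the cohesin ring, and NIPBL loads cohesin onto chromatin and drives loop extrusion. Cohesin accumulates in narrow peaks where extrusion is halted, typically at CTCF sites, whereas NIPBL peaks are often found at active promoters and enhancers.

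The RefSeq sequences of both promoters (250 bases before the annotated start, assembly GRCm38.p6, 5′ to 3′ on the gene's strand) are shown because the windows are named for these genes. They lie at chr10:96616751-96617000 on the plus strand for Btg1 and chr1:134079156-134079405 on the minus strand for Btg2; these positions are of another build than the peaks. Capitals mark TGACGTCA, TATAAA and CCAAT, searched on both strands.
Btg1: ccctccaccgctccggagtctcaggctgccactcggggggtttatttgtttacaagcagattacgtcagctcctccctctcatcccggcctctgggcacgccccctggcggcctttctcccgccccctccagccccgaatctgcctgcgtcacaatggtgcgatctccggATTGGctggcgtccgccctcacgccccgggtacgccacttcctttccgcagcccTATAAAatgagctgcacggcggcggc
Btg2: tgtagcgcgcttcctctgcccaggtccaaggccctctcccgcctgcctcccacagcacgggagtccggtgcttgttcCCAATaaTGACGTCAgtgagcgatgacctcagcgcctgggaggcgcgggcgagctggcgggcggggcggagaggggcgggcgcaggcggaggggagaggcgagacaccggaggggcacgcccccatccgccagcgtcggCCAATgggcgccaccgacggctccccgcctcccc

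The GC content is 65.2% for Btg1 and 73.2% for Btg2. Btg1 holds 1 TATAAA and 1 CCAAT (read on the opposite strand, ATTGG); Btg2 holds 1 TGACGTCA, the letters of the cyclic AMP response element, and 2 CCAAT. Of 32851 RefSeq promoters of the same length, 1.55% hold TGACGTCA, 12.4% TATAAA and 33.8% CCAAT. A match of letters is a description and says nothing of binding in these cells. The neighbouring protein-coding genes in GRCm38.p6 are Eea1 and Gm46240 for Btg1, and Fmod and Chit1 for Btg2.

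The lists hold from 42659 to 1332862 peaks and no read counts, so depth is unknown. The strongest 20000 peaks of a list by −log10 p are called top peaks here, and a library's value is the kb of the window, or the percent of a 10 kb bin, that they cover. The windows hold 17 bins, 9 at Btg1 and 8 at Btg2. Splenic Rad21 lists were uneven, with 149409, 1166191 and 1236385 peaks in stimulated replicates 1, 2 and 3, and 292078, 1177389 and 152152 in unstimulated ones. Top peaks of the stimulated CH12F3 NIPBL lists were narrow, with medians of 51 and 68 bp, against 129 and 664 bp in unstimulated CH12F3. Nothing in the labels ties a replicate to its own animal or culture, so the spread behind each p may be purely technical.

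At Btg1, Rad21 marked one site in nearly every library, and in unstimulated splenic B cells a stretch that includes it and spans most of a 10 kb bin. The site, chr10:96080665-96081356 (692 bp, the bases covered in at least 50% of the Rad21 libraries), carried a top Rad21 peak in 14 of 16 libraries. It overlapped by 608 bp a NIPBL site at chr10:96079006-96081272 (2267 bp), which carried a top NIPBL peak in 8 of 10 libraries. For both antibodies the leading bin, the one with the highest mean coverage, was chr10:96080001-96090000.

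In stimulated spleen, top Rad21 peaks covered 7.12%, 0% and 24.6% of this bin in replicates 1, 2 and 3, against 93.5%, 96.0% and 88.9% in unstimulated spleen. Every stimulated library lay below every unstimulated one. In each unstimulated library the stretch was a single peak, chr10:96080363-96089709, chr10:96080401-96090205 and chr10:96080363-96089155, of 9347, 9805 and 8793 bp. These peaks were the 8th, 6th and 7th widest of the 20000 top peaks of their lists. The widest top Rad21 peak in the window was 712 bp in stimulated replicate 1 and 2461 bp in replicate 3, and replicate 2 had none. Over the whole window, coverage was 1.06 ± 1.27 kb in stimulated and 9.97 ± 0.144 kb in unstimulated spleen (SD, n = 3 each). Across the genome, groups of this comparison did not overlap, with lower values after stimulation, in 9.76% of the 22602 bins covered in 2 or more libraries, and limma called 2.69% lower and 0.128% higher; nothing is read from these shares, since the window was chosen by this contrast.

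**Figure D1:**
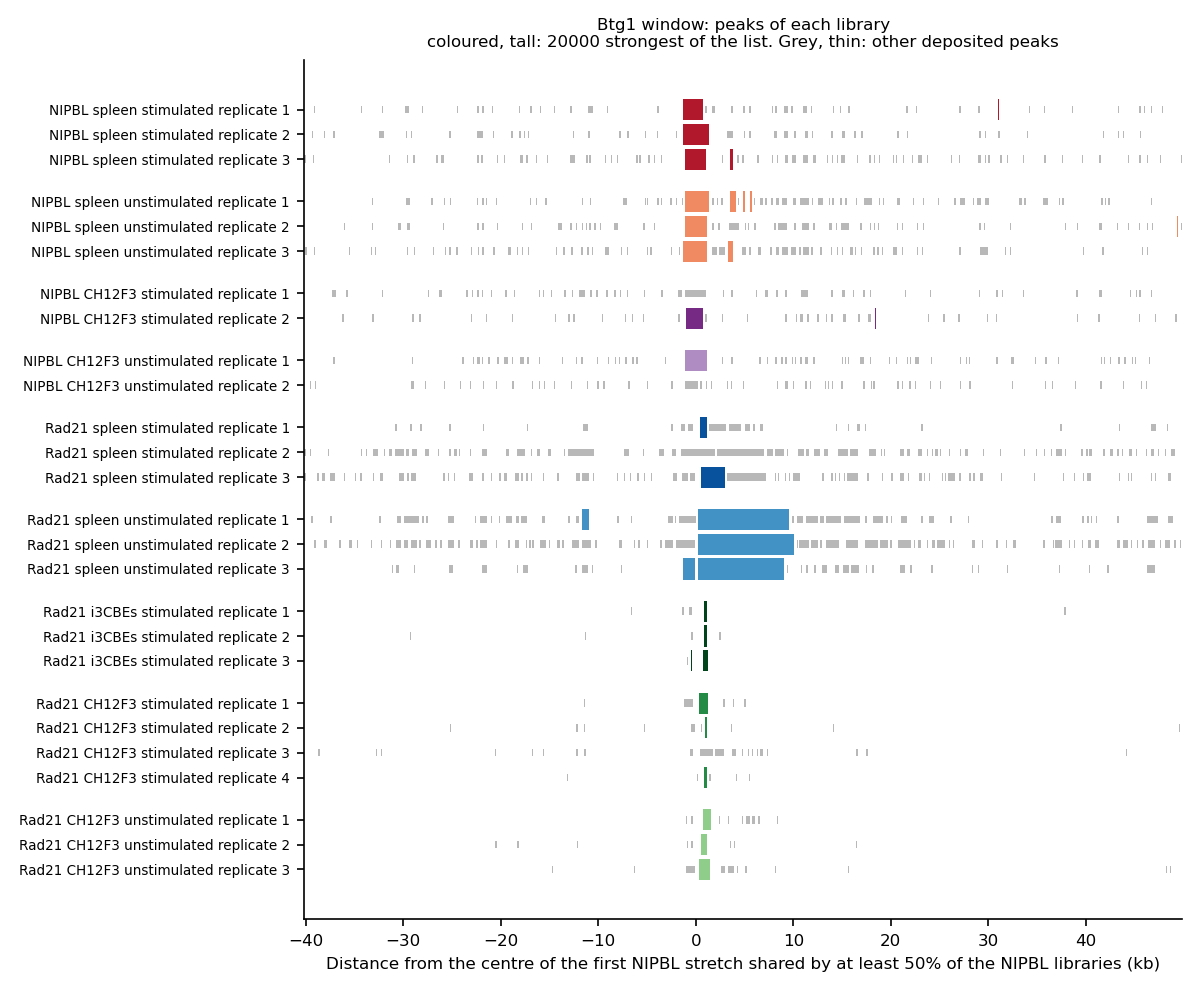
Peaks of each of the 26 libraries in the Btg1 window, by distance in kb from the centre of the NIPBL site; tall coloured bars are the 20000 strongest peaks of a list and thin grey bars the other deposited peaks, the narrowest widened to stay visible. From the site to the right, the stimulated splenic Rad21 libraries show grey fragments and, in 2 of them, a shorter coloured peak, where the 3 unstimulated ones show 1 coloured peak of 8793 to 9805 bp.

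The wide peaks were broad and not tall, and 2 of the 3 lay near the threshold of 20000. Their ranks by −log10 p were 18822 and 19321, just inside, and 14715, with the authors' fold enrichments of 8.13, 7.85 and 5.29. The strongest Rad21 peak of stimulated replicate 2 in the window, chr10:96078663-96082055, ranked 21529, just outside. With 10000 top peaks, none of the 16 Rad21 libraries had a top peak in the Btg1 window. With the strongest peaks up to 8 Mb per list, the bin was covered to 0%, 0% and 7.12% in stimulated and to 0%, 0% and 88.9% in unstimulated spleen.

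Taking every deposited peak, coverage of the bin was 46.0%, 85.8% and 67.2% in stimulated spleen and 95.0%, 96.9% and 89.8% in unstimulated spleen, still without overlap. Across the genome that order, with lower values after stimulation, held in 0.102% of 253798 bins. Nothing is read from this share either, since the window was chosen by this contrast. Among the stimulated libraries coverage was lowest in the shortest list. Between short lists of like length it was 46.0% in stimulated replicate 1, with 149409 peaks, and 89.8% in unstimulated replicate 3, with 152152. Between long lists of like length it was 85.8% in stimulated replicate 2, with 1166191 peaks, and 96.9% in unstimulated replicate 2, with 1177389. Over the whole window the groups overlapped with all deposited peaks, at 7.89 to 31.3 kb in stimulated and 18.3 to 38.0 kb in unstimulated spleen. The part of list length in the difference was not tested.

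The stretch was not present at this width in the lymphoma line. Top Rad21 peaks covered 3.20%, 3.64% and 4.52% of the bin in i3CBEs, 8.61%, 2.69%, 0% and 3.83% in stimulated CH12F3 and 8.12%, 6.56% and 10.7% in unstimulated CH12F3. The top peak at the site was 320 to 452 bp wide in i3CBEs and 656 to 1068 bp in unstimulated CH12F3. It was 269 to 861 bp wide in the 3 stimulated CH12F3 libraries that had one. In stimulated CH12F3 replicate 3 the peak at the site was 1348 bp wide and ranked 22223, outside the top 20000. Stimulated minus unstimulated CH12F3 was −4.67 points in this bin (SE 1.77), an unadjusted p of 0.0247 that missed the threshold after adjustment over 22898 bins (limma, adjusted p = 0.765). The difference between i3CBEs and stimulated CH12F3 was 0.00417 points (SE 1.77; limma, adjusted p = 1), and its sign turned with all deposited peaks (−9.28 points).

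NIPBL at Btg1 ranked among the strongest peaks of the splenic lists. In stimulated spleen its strongest peak ranked 1353, 1436 and 1878, with fold enrichments of 12.0, 10.6 and 12.9, against ranks of 339, 183 and 353 and folds of 36.7, 37.9 and 28.3 in unstimulated spleen. These are the authors' values per peak, and lists differ in length and background, so the ranks and folds show no change by themselves. The peak at the NIPBL site ranked 20149 and 14364 in stimulated CH12F3 and 5101 and 26925 in unstimulated CH12F3.

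No difference beyond the spread was detected in the width covered by top NIPBL peaks. The leading bin was covered to 8.85%, 15.1% and 15.0% in stimulated spleen and to 23.8%, 12.9% and 18.7% in unstimulated spleen, and the groups overlapped. The difference was −5.50 points (SE 3.30; limma, adjusted p = 0.529, over 18341 bins). Over the window, coverage was 2.45 ± 0.307 kb in stimulated and 2.92 ± 0.562 kb in unstimulated spleen (SD, n = 3 each; two-sided exact permutation test, p = 0.3, where 0.1 is the smallest possible). With all deposited peaks the groups separated, at 9.62 ± 1.68 kb in stimulated and 14.0 ± 1.06 kb in unstimulated spleen (exact permutation p = 0.1), and the leading bin stood at 22.0%, 31.2% and 24.7% in stimulated and 45.4%, 40.0% and 48.4% in unstimulated spleen. Non-overlap of this direction held in 8.12% of all 255822 bins with all deposited peaks.

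**Figure D2:**
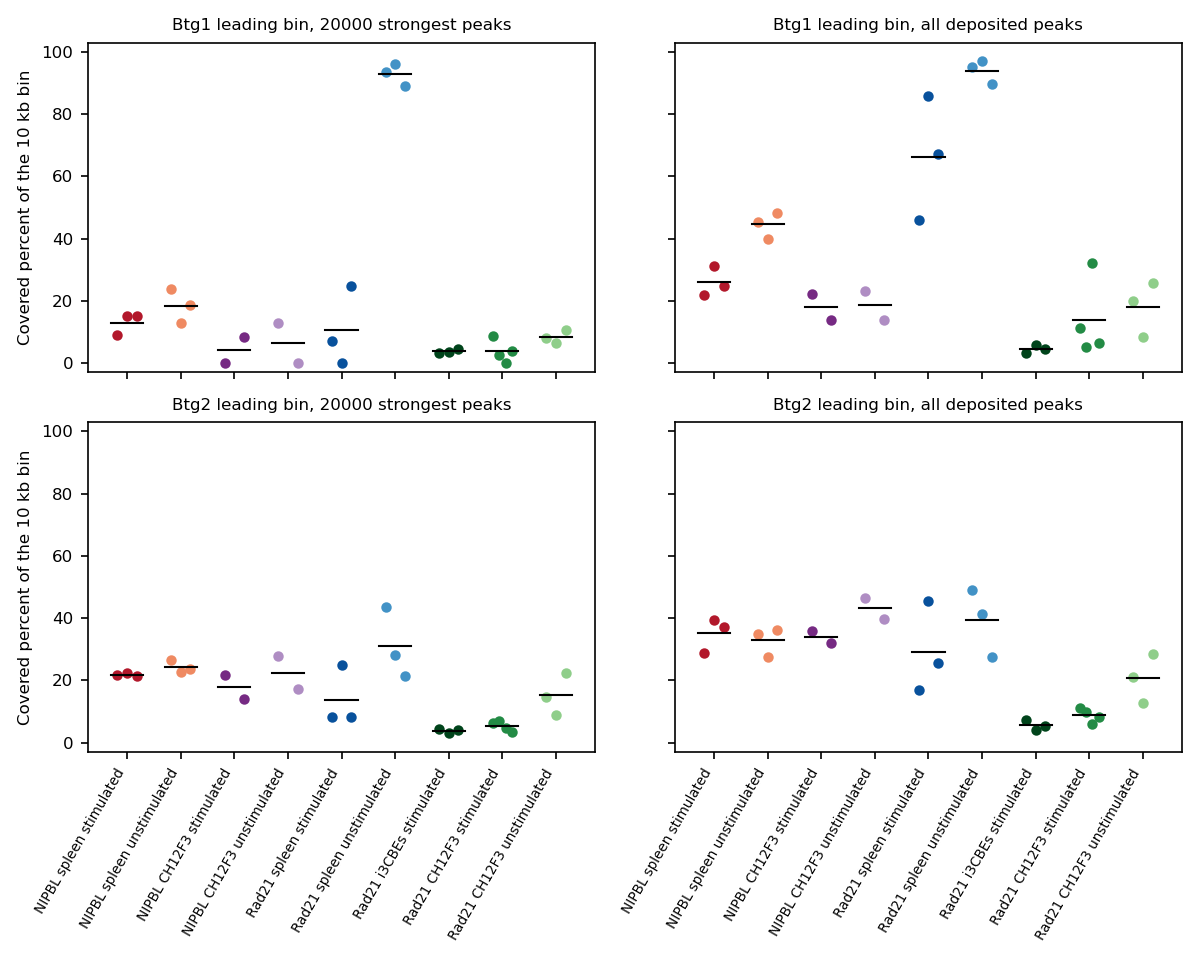
Percent of the leading 10 kb bin of each window covered by the 20000 strongest peaks (left) or by all deposited peaks (right); each point is a library and each line the mean of its group. At Btg1 on the left, stimulated splenic Rad21 reaches at most 24.6% and unstimulated splenic Rad21 stands between 88.9% and 96.0%; on the right the stimulated libraries lie between 46.0% and 85.8% and the unstimulated ones between 89.8% and 96.9%.

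At Btg2, Rad21 marked 5 sites spread over about the window, and NIPBL 4 sites, of which only the first overlapped a Rad21 site. From low to high coordinate the Rad21 sites were chr1:135942548-135942816, chr1:135945244-135945720, chr1:135949825-135950262, chr1:135956280-135956735 and chr1:136003311-136003753. The first carried a top Rad21 peak in 12 of 16 libraries and each of the other 4 in 16 of 16. The NIPBL sites were chr1:135956519-135958149 (10 of 10 libraries), chr1:135959367-135960725 (9), chr1:135974856-135976236 (7) and chr1:135989398-135990822 (7). The fourth Rad21 site and the first NIPBL site shared 217 bp. Each of the other sites lay 2631 bp or more from the nearest site of the other antibody.

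**Figure D3:**
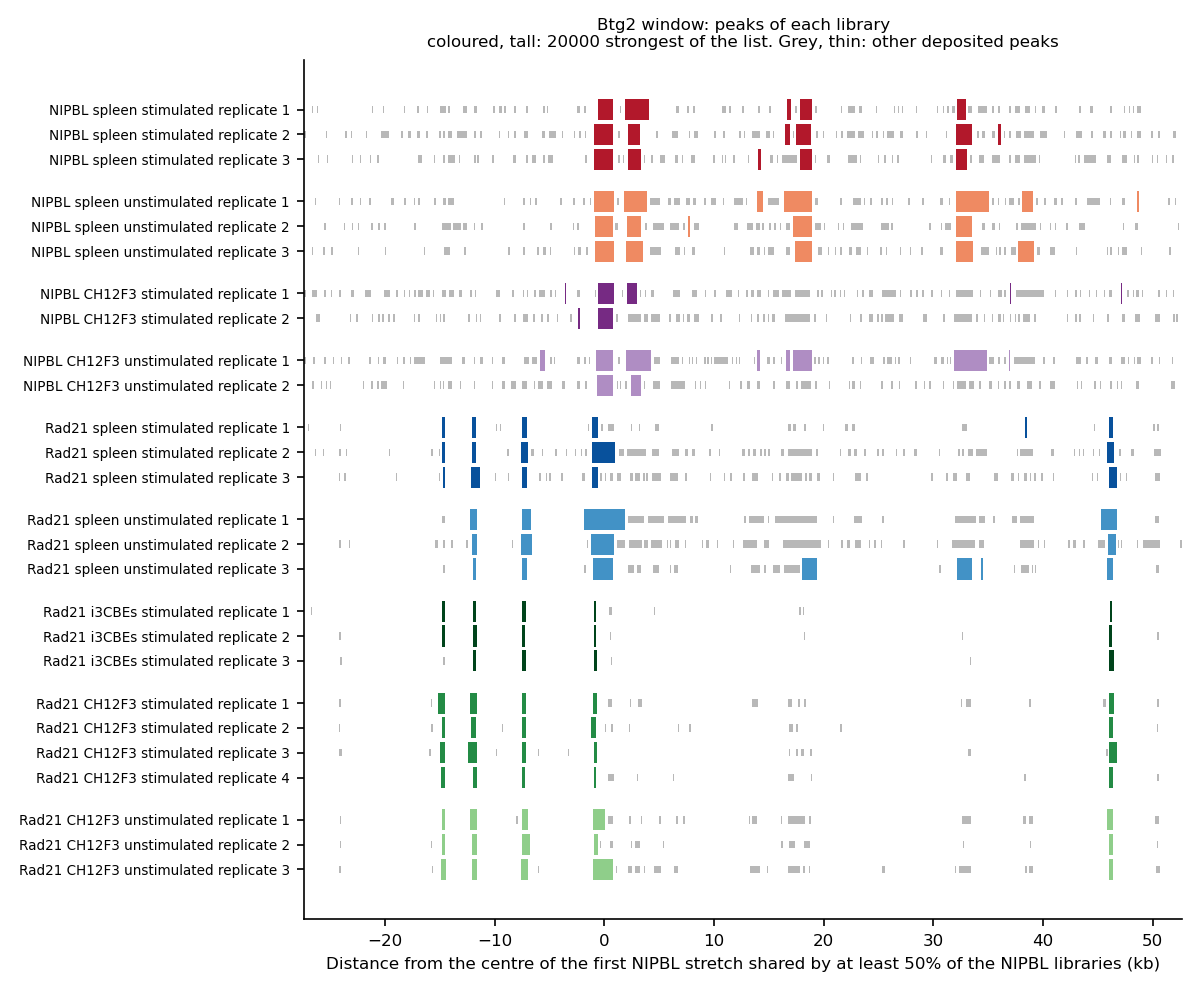
Peaks of each of the 26 libraries in the Btg2 window, by distance in kb from the centre of the first NIPBL site; tall coloured bars are the 20000 strongest peaks of a list and thin grey bars the other deposited peaks, the narrowest widened to stay visible. Rad21 sites stand at −14.7, −11.9, −7.3, −0.8 and 46.2 kb, and the first of them is coloured in all 3 stimulated and in none of the unstimulated splenic Rad21 libraries.

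In each Rad21 list the strongest peak of the Btg2 window outranked that of the Btg1 window. This did not hold for every Btg2 site, since the first and the fourth ranked below the Btg1 site in some libraries. The strongest peak of the Btg2 window ranked 289 to 1232 in stimulated spleen, 268 to 1267 in unstimulated spleen, 231 to 1231 in i3CBEs, 1116 to 2112 in stimulated CH12F3 and 1336 to 2055 in unstimulated CH12F3. In the Btg1 window it ranked 12273 to 21529 in stimulated spleen, 11561 to 19321 in unstimulated spleen, 13786 to 17955 in i3CBEs, 13065 to 22223 in stimulated CH12F3 and 13681 to 19767 in unstimulated CH12F3. No Rad21 library had its strongest Btg1 peak above its strongest Btg2 peak, which is a description within each list. For NIPBL in spleen the windows were alike or reversed, with Btg2 ranks of 902 to 1897 in stimulated and 852 to 1714 in unstimulated spleen.

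**Figure D4:**
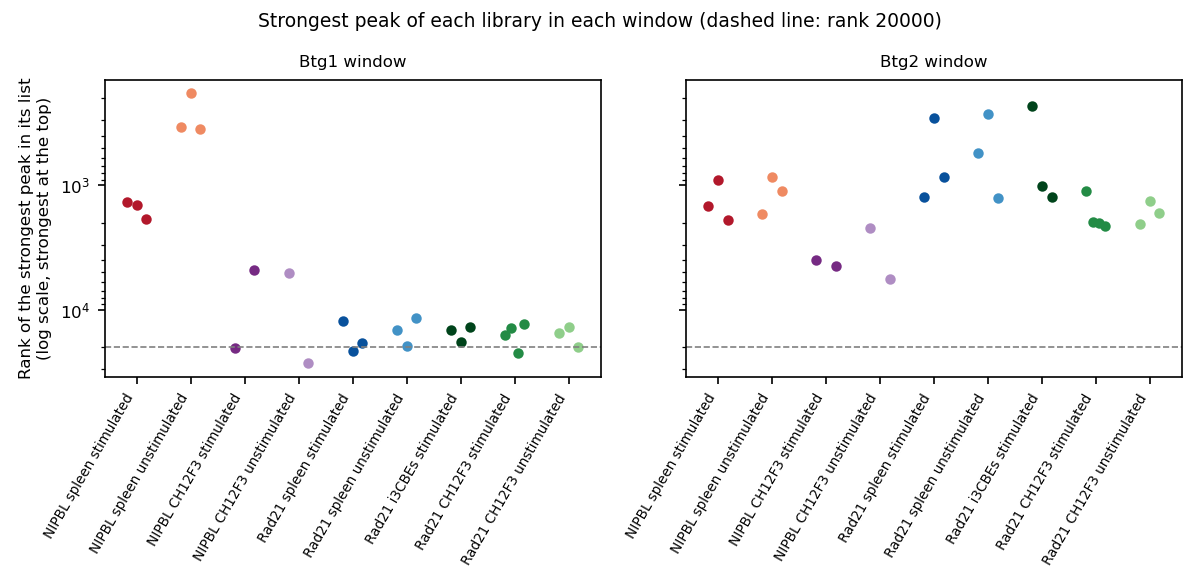
Rank by −log10 p of the strongest peak of each library in the Btg1 (left) and Btg2 (right) window, on a log axis with the strongest at the top; each point is a library and the dashed line is rank 20000. Rad21 points lie between ranks 11561 and 22223 for Btg1 and between 231 and 2112 for Btg2, whereas unstimulated splenic NIPBL at Btg1 reaches rank 183.

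At the first Rad21 site of Btg2 the peak was within the strongest 20000 in all 3 stimulated splenic libraries, at ranks 16650, 11420 and 12835, and in none of the 3 unstimulated ones, where it was deposited at ranks 25152, 41647 and 32677. Its fold enrichments overlapped, with 4.73, 11.8 and 7.42 in stimulated and 6.67, 6.15 and 4.05 in unstimulated spleen, and ranks from lists of unequal length show no change by themselves. The second site ranked 4138, 458 and 4741 in stimulated and 6668, 5274 and 6455 in unstimulated spleen, a top peak in each. The first site carried a top peak in 2 of 3 i3CBEs, 4 of 4 stimulated CH12F3 and 3 of 3 unstimulated CH12F3 libraries. The bin that holds both sites and part of the third, chr1:135940001-135950000, was covered to 8.01%, 9.82% and 12.2% in stimulated and 7.65%, 6.79% and 4.60% in unstimulated spleen. These groups did not overlap; higher values after stimulation without overlap occurred in 7.07% of bins. With all deposited peaks they overlapped, at 9.03% to 13.7% in stimulated and 6.54% to 16.0% in unstimulated spleen.

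The leading bin of Btg2, chr1:135950001-135960000, holds the fourth Rad21 site and the first NIPBL site. It also holds part of the third Rad21 site and part of the second NIPBL site, so its values do not belong to a single site. Top Rad21 peaks covered 8.13%, 24.8% and 8.15% of it in stimulated and 43.7%, 28.2% and 21.3% in unstimulated spleen, so that stimulated replicate 2 lay within the unstimulated range. Over the window the values were 2.98 ± 1.04 kb in stimulated and 5.63 ± 1.28 kb in unstimulated spleen (SD, n = 3 each). The peak at the fourth site was 511 to 2073 bp wide in stimulated and 1866 to 3749 bp wide in unstimulated spleen. Rad21 coverage was again wider in unstimulated spleen, as at Btg1, but the groups overlapped in the bin and, with all deposited peaks, over the window. Over the genome, top Rad21 peaks covered 10.6 ± 4.13 Mb in stimulated and 13.2 ± 3.71 Mb in unstimulated spleen (SD, n = 3 each). The part of this in the differences at either gene was not tested.

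In CH12F3 the same bin was covered to 6.27%, 6.81%, 4.65% and 3.44% after stimulation, against 14.8%, 8.93% and 22.4% without it. All stimulated libraries lay below all unstimulated ones, an order found in 2.28% of bins. The difference was −10.1 points (SE 2.55, unadjusted p = 0.00259) and missed the threshold over all bins (limma, adjusted p = 0.670), where 0.0262% of 22898 bins were called lower. Without unstimulated replicate 2, the lowest of its group, the difference was −13.3 points and passed (limma, adjusted p = 0.0253), in a fit that called 0.782% of bins lower and 0.0795% higher. Without unstimulated replicate 3, the highest of its group, it was −6.58 points (limma, adjusted p = 0.760). With the replicate number as a block it was −9.49 points (limma, adjusted p = 0.914). That fit left out stimulated replicate 4 and the i3CBEs libraries, so it does not show the effect of the block alone. Over the window, stimulated CH12F3 had 2.19 ± 0.476 kb (n = 4) and unstimulated CH12F3 3.04 ± 0.819 kb (n = 3), a difference within the spread (two-sided exact permutation p = 0.171).

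Stimulated i3CBEs had narrower Rad21 coverage over the Btg2 window than stimulated CH12F3, an order that was common across the genome. The window values were 1.27, 1.26 and 1.34 kb in i3CBEs and lay between 1.63 and 2.61 kb in CH12F3, with means of 1.29 ± 0.043 kb (n = 3) and 2.19 ± 0.476 kb (n = 4). The groups did not overlap, also with all deposited peaks, at a two-sided exact permutation p of 0.0571, the lowest this number of libraries can give. In bin chr1:135940001-135950000 coverage was 6.82%, 6.94% and 4.52% in i3CBEs and 14.6%, 9.14%, 14.3% and 9.41% in stimulated CH12F3, a difference of −5.76 points (SE 1.76; limma, adjusted p = 0.167, where 0.231% of bins were called lower and 0.179% higher). Lower values in i3CBEs without overlap held in 1 of 3 covered Btg2 bins with top peaks and in 3 of 8 with all deposited peaks. Across the genome they held in 24.4% of bins with top peaks and 18.7% with all deposited peaks. Top peaks covered 5.86 Mb on average in i3CBEs against 9.27 Mb in stimulated CH12F3. The part of this in the Btg2 difference was not tested.

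Splenic NIPBL at Btg2 varied little among libraries in its leading bin and more at the outer sites. The leading bin was covered to 21.6%, 22.5% and 21.5% in stimulated and 26.6%, 22.8% and 23.7% in unstimulated spleen. All stimulated values lay below, by a margin of 0.3 points, and such an order held in 7.65% of 18341 bins; the difference of −2.50 points (SE 1.47) missed the threshold (limma, adjusted p = 0.524), and with all deposited peaks its sign turned (2.29 points). The largest difference was in bin chr1:135990001-136000000, with 2.75%, 11.1% and 3.70% in stimulated and 34.0%, 8.22% and 23.2% in unstimulated spleen, −15.9 points (SE 6.64; limma, adjusted p = 0.420). Over the window, coverage was 5.79 ± 0.543 kb in stimulated and 8.29 ± 2.47 kb in unstimulated spleen (SD, n = 3 each; two-sided exact permutation p = 0.2).

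Across both windows, 7 of the 17 bins passed the filter for splenic NIPBL and 0 were called, where 1.74% of bins were called higher and 1.24% lower in the genome; 0 of the 7 had an unadjusted p under 0.05. The median difference over the 7 was −2.50 points, beside 0 over all bins tested. In CH12F3, NIPBL gave 0 calls among 5 bins and in the genome (0% of 12325 bins in either direction, limma). The leading bin of Btg2 was covered to 21.9% and 14.2% in stimulated and 27.9% and 17.1% in unstimulated CH12F3. With 2 libraries per group the exact test cannot go below p = 0.333.

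Between cell types, the splenic NIPBL mean stood above that of CH12F3 in 7 of the 8 bins tested among stimulated cells and in 7 of 8 among unstimulated ones, and 0 of 8 passed the test in either state. Among stimulated cells, 6 bins had every splenic library above both CH12F3 ones, 2 at Btg1 and 4 at Btg2; this order held in 31.5% of bins in the genome, and 2.38% were called higher in spleen and 1.40% lower. With all deposited peaks the order did not hold in any of these 6 bins: 1 other bin at Btg1 was higher in spleen, and 2 of the Btg2 bins were lower (9.93% and 13.2% of bins in the genome). Among unstimulated cells, with top peaks, only the leading bin of Btg1 had every splenic library above both CH12F3 ones (13.1% of bins in the genome). It was covered to 23.8%, 12.9% and 18.7% in spleen and to 12.8% and 0% in CH12F3. That difference was 12.1 points (SE 4.88; limma, adjusted p = 0.529, where 1.19% of bins were called higher and 0.949% lower). With all deposited peaks it was 26.1 points and passed (limma, adjusted p = 0.0487), in a fit that called 0.278% of bins higher in spleen and 1.5% lower. Both stimulated CH12F3 lists had narrow top peaks. So did unstimulated CH12F3 replicate 2, with a median of 129 bp and 5.35 Mb covered, against 664 bp and 17.0 Mb in replicate 1. The part of these narrow peaks in the differences among stimulated and among unstimulated cells was not tested. The effect of stimulation did not differ detectably between spleen and CH12F3, with 0 of 8 bins called for the interaction. The leading bin of Btg1 gave −3.23 points (SE 6.89, limma adjusted p = 0.899). In the genome 0.00648% of 30880 bins were called higher and 0.00324% lower, but these shares depended on the setting. With 10000 top peaks 274 bins were higher and 240 lower, with 40000 78 and 15, and with all deposited peaks 0 and 0. Leaving out any CH12F3 library leaves 1 in its group, so no counts are given for that.

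The bins whose Rad21 coverage was most like that of the leading bins were found by Pearson's r over the 16 Rad21 libraries, among 18027 bins covered in 8 or more. For Btg1 they were chr10:7550001-7560000 (r = 0.971), chr7:52650001-52660000 (0.961) and chr9:64630001-64640000 (0.960). In this order they averaged 0%, 2.71% and 5.66% in stimulated spleen and 29.9%, 11.2% and 41.9% in unstimulated spleen. For Btg2 they were chr4:140520001-140530000 (r = 0.970), chr5:86490001-86500000 (0.954) and chr13:41390001-41400000 (0.951). In this order these averaged 4.7%, 7.79% and 6.98% in stimulated spleen and 8.4%, 16.1% and 10.65% in unstimulated spleen. Libraries of a group share cell type and stimulation, and lists differ in length between groups, so these values describe likeness and carry no p.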

How the data were processed

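The data were 26 peak lists, each of a single NIPBL or Rad21 ChIP-seq library; 5 input samples were not analysed here. Per the submitters' processing notes, the authors used Bowtie2, MACS2 and the mm9 build, with versions not given in the sources used here. For each peak the authors deposited a fold enrichment (a ratio), a −log10 p-value, a −log10 q-value and a score. Peak names in the deposited lists give a control for all Rad21 lists and for CH12F3 NIPBL replicate 2 in both states, and none for the other NIPBL lists; i3CBEs have a control of their own.

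On 21 main chromosomes, the top 20000 peaks of a list by −log10 p were used, which sets lists of unequal length on equal numbers. Wide and weak peaks near this threshold can enter or leave as whole stretches. The percent of each of 264200 bins of 10 kb covered by these peaks entered limma 3.58.1 under R 4.3.3, with a mean-variance trend, in bins covered in 2 or more libraries, with Benjamini-Hochberg adjusted p under 0.05 over all bins; the tests were checked on simulated data. Covered kb per window was compared in 12 two-sided exact permutation tests (scipy 1.17.1). Rad21 in CH12F3 and i3CBEs shared a fit. Same-numbered CH12F3 Rad21 libraries deviated together (r of 0.417, 0.642 and 0.371), a pairing taken from these correlations and the titles. Stimulated 1 with unstimulated 3, 3 with 1 and 4 with 2 did so as well (0.436, 0.352 and 0.585), so the shared number is not singled out. With that number as a block, 0 bins of the genome were called, against 0 higher and 6 lower without it. The block fit left out stimulated replicate 4 and the i3CBEs libraries, so these counts differ by libraries as well as by the block. Named bins were the leading bin per window and antibody, called bins, bins without overlap in splenic stimulation, and the 3 bins most like each leading Rad21 bin; the splenic NIPBL bin with the largest difference was named after its values were seen. Members, lists and tests were chosen with earlier results of these data known. The other BTG/TOB family and quiescence genes were not placed in mm9 and are not analysed here.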

Additional observations from a re-analysis of the deposited data

How the results depend on the processing

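The settings tried were 10000 and 40000 top peaks, all deposited peaks, peaks with −log10 q of 5 or more, and an equal covered length of 8 Mb. Under other settings, 10 window results turned, 19 untested ones moved beyond the spread and the rest kept direction or fell to 0. With 1 library left out, 99 kept theirs and 7 turned. Differences are stimulated minus unstimulated, spleen minus CH12F3 or i3CBEs minus stimulated CH12F3, and where a value turned or moved the cause was not tested.

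Rad21 at Btg1 depended most on the setting. With 10000 top peaks no peak was left in its window, so every Rad21 difference there was 0 kb and its leading bin was not tested. Splenic stimulation gave −5.96 kb by q and −3.12 kb at equal length, and −9.62 to −8.38 kb with 1 library left out; its leading bin gave −49.4 points with 40000 peaks, −27.6 with all, −32.9 by q and −27.3 at equal length. Unstimulated spleen minus CH12F3 gave 12.8 kb with 40000 peaks, 26.6 kb with all, 9.90 kb by q and 2.86 kb at equal length. Stimulated spleen minus CH12F3 gave 4.12, 18.0 and 4.18 kb with 40000, all and q-selected peaks, and −0.022 to 1.21 kb with 1 library left out, turning without stimulated splenic replicate 3. Stimulation of CH12F3 turned to 0.114 kb with 40000 peaks. For i3CBEs the difference turned to −0.63 kb (40000), −1.59 kb (all) and −0.351 kb (q), and ranged from −0.108 to 0.179 kb without single libraries (below 0 without i3CBEs replicate 3 or CH12F3 replicate 2 or 3). Its leading bin gave −3.44, −9.28 and −1.21 points under those settings and −1.26 to 1.61 with 1 library left out, below 0 without the same libraries.

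For Rad21 at Btg2, splenic stimulation gave −8.47 kb with 40000 peaks, −6.75 kb with all and −8.56 kb by q. Unstimulated spleen minus CH12F3 gave 7.60, 11.6, 8.33 and 1.49 kb with 40000, all, q-selected and equal-length peaks, and stimulated spleen minus CH12F3 8.82 kb with all. Bin chr1:135940001-135950000 gave −1.09 points for CH12F3 stimulation with 10000 peaks.

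NIPBL in CH12F3 has 2 libraries per state and turned most often. At Btg1 its stimulation difference was 0.176 kb (40000) and 0.221 kb (equal length), and −1.36 to 0.894 kb with 1 library left out, above 0 without replicate 1 of either state. The leading bin gave 1.86 and 2.05 points under those settings and −8.69 to 1.88, above 0 without stimulated replicate 1. At Btg2 the window gave 0.352 kb by q, and the leading bin 3.89 points by q, 3.95 at equal length and −9.84 to 0.92, above 0 without unstimulated replicate 1. In spleen the Btg2 leading bin gave 2.29 points with all deposited peaks.

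Unstimulated spleen minus CH12F3 for NIPBL at Btg2 was −2.21 kb with all peaks and −1.62 to 5.86 kb, below 0 without unstimulated CH12F3 replicate 2. Its leading bin was −10.4 points with all, 7.91 at equal length (limma, adjusted p = 0.0325) and −3.49 to 7.27, below 0 without that replicate. The stimulated difference was −2.08 kb (all) and −3.97 kb (q), and −7.65 points by q in the bin. The interaction in the Btg2 bin was −0.427 (40000), −8.74 (q), −6.45 points (equal length) and −3.42 to 7.34, below 0 without stimulated replicate 2 or unstimulated replicate 1 of CH12F3. In the Btg1 bin it was 4.20 points with 10000 peaks and −9.65 to 3.19, above 0 without CH12F3 replicate 2 of either state.

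Counts over the genome moved too. Splenic Rad21 had 29 bins called higher and 609 lower, against 0 and 0 with 10000 or 40000 peaks, by q or at equal length, 0 and 0 without any one stimulated replicate or without a filter on bins, 0 and 6 with all deposited peaks, 0 and 289 without unstimulated replicate 1, and 47 and 1759 without unstimulated replicate 3. Splenic NIPBL had 320 and 227, against 0 and 0 by q, 380 and 458 with 10000 peaks, 331 and 66 with 40000, 494 and 443 at equal length, 174 and 126 with all NIPBL groups in one fit and 1442 and 89 with all deposited peaks; without 1 library they ranged from 218 (unstimulated replicate 2) to 656 (unstimulated replicate 1) higher and from 199 to 371 lower. Between i3CBEs and CH12F3 41 and 53 became 1561 and 202 at equal length and 11 and 406 by q. Between spleen and CH12F3, NIPBL counts of 366 and 293 (unstimulated) and 735 and 432 (stimulated) became 112 and 451, and 22 and 153, by q. The interaction's 2 and 1 became 466 and 1081 at equal length. An overlap of 50% of the shorter peak gave the same number of libraries at all 11 sites.

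Splenic replicate numbers did not pair the libraries (r of −0.099, −0.018 and −0.038 for NIPBL; −0.118, 0.027 and 0.007 for Rad21). With the replicate number as a block, splenic NIPBL had 0 and 0 bins called and splenic Rad21 44 and 897. No block changed the call of a bin or window described here; over the windows it gave p = 0.5 for splenic NIPBL at both genes, and −0.469 kb (p = 0.5) and −0.671 kb (p = 0.25) for CH12F3 Rad21 at Btg1 and Btg2 (exact sign-flip tests). For NIPBL in CH12F3, only number 2 stands in the titles; a block of the unnumbered and of the numbered libraries (r = 0.313), chosen after seeing the data, called 0 bins and gave the same differences over the windows, −0.234 kb (p = 1) at Btg1 and −4.15 kb (p = 0.5, the smallest 2 pairs allow) at Btg2 in exact sign-flip tests. Read depth is unknown, so no detection limit is given.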
